A study of Mus musculus with 65 samples.

Results

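Histone H3.3 trimethylated at lysine 27 (H3.3K27me3) was mapped by chromatin immunoprecipitation and sequencing (ChIP-seq) in differentiating mouse embryonic stem cells and compared between day 6 and day 0. The comparison rests on 12 of the 65 samples of the series, which are 4 libraries sequenced in 3 runs each: replicates 1 and 2 at day 6 and replicates 1 and 2 at day 0, labelled as biological duplicates. All 4 came from wild-type cells, strain and line not given in the sources used here. Day 6 cells had grown as rotating embryoid bodies without leukaemia inhibitory factor and with 10 µM retinoic acid. Day 0 cells were undifferentiated stem cells kept with that factor. Chromatin of both days was fixed with formaldehyde and precipitated with a custom antibody against H3.3K27me3. An embryoid body is a mixture of cell types, so fewer marked cells and less mark per cell cannot be told apart here, in the ChIP or in the RNA. Libraries against H3K27me3, H3.3 and H3 from the same days, and RNA-seq of wild-type cells, serve as the setting for the H3.3K27me3 values.

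H3.3 is the variant of histone H3 that is placed in chromatin outside DNA replication, by chaperones such as HIRA at genes and ATRX with DAXX at repeats. Trimethylation of lysine 27 is written by Polycomb repressive complex 2 (PRC2), whose EZH1 or EZH2 subunit is the methyltransferase, and it is bound by the CBX subunits of Polycomb repressive complex 1. In stem cells this mark covers CpG-rich promoters of developmental regulators, which are silent there, such as the HOX genes. Retinoic acid activates the HOX clusters and moves embryoid bodies toward neural cells.

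The 4 H3.3K27me3 libraries differed in depth, with 33.62 and 37.76 M tags (M for a count in units of 1e6) at day 6, against 81.24 and 55.21 M at day 0. The 12 libraries of the other antibodies held between 54.16 and 81.65 M. No input or other control entered the calling. The enrichment of a call is thus its summit pileup over the genome-wide mean of its own library, with 1 added to each. The added 1 weighs more where depth is lower, so enrichments of the days are not plain ratios on 1 scale. At these depths 1 read is worth 0.235 and 0.215 units of enrichment at day 6 and 0.116 and 0.158 at day 0, and the lowest enrichment of any call was 2.11 and 2.15 at day 6 and 1.86 and 1.89 at day 0. In all 16 libraries chromosome 8 took more of the peak sequence than its 4.75% of the genome, with 20.0% and 34.7% in H3.3K27me3 at day 6, against 39.9% and 38.8% at day 0, and 35.9% to 52.0% in H3. Counts are therefore also given without it. In the RNA libraries of 2019, which are not stated to be the same cultures, 8 stem cell markers summed to 268 and 262 CPM (counts scaled to a library of 1e6) at day 6, against 6579 and 6175 at day 0. The 8 neural markers summed to 1370 and 1195 CPM at day 6, against 208 and 222 at day 0. The 6 markers of extraembryonic endoderm summed to 553 and 528 CPM at day 6, against 7.71 and 8.72 at day 0. The 4 fibroblast markers summed to 365 and 463 CPM at day 6, against 14.6 and 15.1 at day 0, and the 5 of mesoderm and endothelium to 38.4 and 48.7 CPM at day 6, against 75.6 and 99.2 at day 0. Of these 5, Pecam1 fell to 3.62 and 4.85 CPM at day 6, against 72.3 and 95.5 at day 0, while Cdh5 and Kdr rose. Among the 4 fibroblast markers, Thy1 fell to 6.42 and 5.49 CPM at day 6, against 8.20 and 11.2 at day 0. Col1a1, Col1a2 and Postn rose, and Col1a1 alone had 290 and 377 CPM at day 6. The part of these cell types in the ChIP values was not tested.

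The sequences of 6 promoters are examples of the CpG content of promoters that lost, kept or gained a peak. They run from 250 bases before to 50 after the start in RefSeq (build GRCm38.p6) and are read 5′ to 3′ on the gene's strand, with CG dinucleotides in capitals. A promoter counts as lost, kept or gained by whether a peak of both replicates lay within 1000 bp of its start at day 0 only, at both days or at day 6 only. Nkx2-1 (lost, chr12:56536859-56537158, minus strand) encodes a lung, thyroid and forebrain factor, and Isl2 (lost, chr9:55540899-55541198, plus strand) a motor neuron factor. Hand2 (kept, chr8:57320733-57321032, plus strand) encodes a heart and limb factor, and Hoxa10 (kept, chr6:52234890-52235189, minus strand) a posterior HOX factor. These had the highest mean day 0 enrichment of their class among the genes of the lists used here that have a sequence in the RefSeq table. No list gene gained a peak, so the last pair was chosen after the values were seen. Vmn2r49 (gained, chr7:9992090-9992389, minus strand), a vomeronasal receptor gene, had the highest mean day 6 enrichment among gained promoters with a RefSeq sequence. Its RefSeq start lies 118 bp from the start used here. Its enrichments were 3.99 and 3.86 at day 6, against 4.18 and no call at day 0, so day 0 replicate 1 lay above both day 6 values. Olfr1445 (gained, chr19:12883633-12883932, plus strand), an olfactory receptor gene, had the highest among those without any call at day 0, with its start 28 bp away.
Nkx2-1: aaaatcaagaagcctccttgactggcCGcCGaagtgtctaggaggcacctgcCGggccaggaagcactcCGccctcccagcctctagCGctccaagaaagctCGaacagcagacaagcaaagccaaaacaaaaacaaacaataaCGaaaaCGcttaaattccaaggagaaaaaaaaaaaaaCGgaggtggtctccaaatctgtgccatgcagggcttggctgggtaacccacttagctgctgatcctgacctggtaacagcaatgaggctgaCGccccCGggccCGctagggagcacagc
Isl2: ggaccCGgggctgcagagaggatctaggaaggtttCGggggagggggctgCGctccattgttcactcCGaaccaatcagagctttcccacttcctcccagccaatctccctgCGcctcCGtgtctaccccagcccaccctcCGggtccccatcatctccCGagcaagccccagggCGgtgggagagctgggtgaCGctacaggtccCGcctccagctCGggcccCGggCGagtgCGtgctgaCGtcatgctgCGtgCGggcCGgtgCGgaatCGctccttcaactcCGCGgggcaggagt
Hand2: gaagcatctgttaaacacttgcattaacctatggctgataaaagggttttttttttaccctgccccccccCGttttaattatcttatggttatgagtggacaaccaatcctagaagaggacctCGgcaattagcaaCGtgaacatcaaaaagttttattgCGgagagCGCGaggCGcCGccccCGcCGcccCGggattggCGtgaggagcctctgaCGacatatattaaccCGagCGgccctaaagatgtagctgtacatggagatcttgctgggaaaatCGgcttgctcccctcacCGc
Hoxa10: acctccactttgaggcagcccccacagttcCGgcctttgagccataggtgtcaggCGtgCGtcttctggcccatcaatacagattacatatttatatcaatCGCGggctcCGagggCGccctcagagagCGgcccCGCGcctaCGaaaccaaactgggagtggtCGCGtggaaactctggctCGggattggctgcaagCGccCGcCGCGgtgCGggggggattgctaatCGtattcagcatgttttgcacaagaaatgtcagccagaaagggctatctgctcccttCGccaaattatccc
Vmn2r49: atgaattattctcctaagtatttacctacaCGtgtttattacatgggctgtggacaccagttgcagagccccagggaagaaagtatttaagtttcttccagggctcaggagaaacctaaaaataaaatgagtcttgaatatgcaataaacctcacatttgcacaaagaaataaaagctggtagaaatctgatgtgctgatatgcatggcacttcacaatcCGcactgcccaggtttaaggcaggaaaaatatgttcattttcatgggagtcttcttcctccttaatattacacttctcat
Olfr1445: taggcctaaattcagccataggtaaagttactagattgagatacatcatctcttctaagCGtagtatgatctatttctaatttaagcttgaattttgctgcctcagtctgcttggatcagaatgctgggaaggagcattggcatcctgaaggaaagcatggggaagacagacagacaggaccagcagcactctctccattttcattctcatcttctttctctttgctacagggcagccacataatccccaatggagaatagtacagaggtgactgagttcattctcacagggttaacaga
The lost and kept promoters held 12, 23, 17 and 21 CG dinucleotides in the order printed, and the gained ones 2 and 1, where the median of 32851 RefSeq promoters of this length was 7. Of the 23581 genes with a start, 17235 had a sequence in that table.

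The number of H3.3K27me3 peaks overlapped between the days, and most peaks were found at 1 day only. The authors' filtered lists held 26201 and 14475 peaks at day 6, against 14783 and 12676 at day 0, and covered 330.4 and 167.4 Mb at day 6, against 180.5 and 196.8 Mb at day 0. The replicates of day 6 thus differed more from each other than the replicates of day 0. Stretches holding a peak of both replicates numbered 6498 at day 6 (172.6 Mb) and 5133 at day 0 (155.7 Mb). Of the day 6 peaks, 28.2% touched a day 0 peak, and of the day 0 peaks, 29.5% touched a day 6 peak. Between single libraries of the same day, 27.2% of the peaks of replicate 1 and 51.5% of those of replicate 2 were found in the other replicate at day 6, against 42.1% and 44.4% at day 0. Single libraries of different days had 20.1% to 37.4% of their peaks in common. Strong peaks were shared far more: of those with an enrichment of at least 4, which numbered 202 and 167 at day 6 and 223 and 226 at day 0, between 79.4% and 95.1% were found in any other H3.3K27me3 library. Without chromosome 8, 14% of the day 6 peaks touched a day 0 peak and 17.0% of the day 0 peaks touched a day 6 peak.

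A smaller share of peaks touched promoters at day 6 than at day 0, and the day 6 peaks held fewer CpGs. A promoter was touched by 7.53% and 7.03% of filtered peaks at day 6, against 23.3% and 24.7% at day 0. Outside any gene lay 59.7% and 61.0% of peaks at day 6, against 50.3% and 46.9% at day 0. Day 6 peaks held 5.95 and 6.19 CpGs per kb, against 10.4 and 9.97 at day 0, where the genome has 8.26. Both measures were separate between the days, with no overlap of the replicates. Without chromosome 8 the difference was as large, since 6.82% and 6.03% of peaks touched a promoter at day 6, against 23.9% and 24.4% at day 0. Peaks in the plain H3 libraries also differed by day, touching a promoter in 7.77% and 8.13% of cases at day 6 and in 19.6% and 15.4% at day 0. Those of H3K27me3 did so in 28.5% and 22.5% at day 6 and in 32.4% and 30.5% at day 0, and those of H3.3 in 35.1% and 27.2% at day 6 and in 33.4% and 35.7% at day 0. The part of depth, which was lower in both day 6 libraries, and of the signal seen with plain H3 was not tested.

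**Figure D1:**
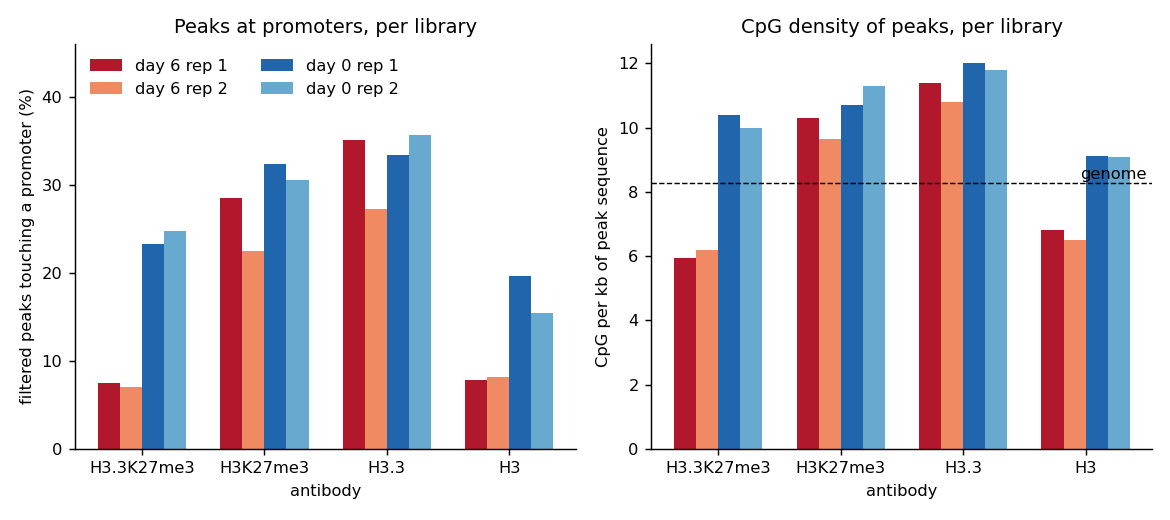
Bars give, for each library of the 4 antibodies with both day 6 replicates left of both day 0 replicates, the share of filtered peaks that touch a promoter in percent (left panel) and the CpGs per kb of peak sequence, with the genome as a dashed line (right panel). H3.3K27me3 lies at 7.53% and 7.03% at day 6, against 23.3% and 24.7% at day 0, and at 5.95 and 6.19 CpGs per kb at day 6, against 10.4 and 9.97 at day 0.

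The peaks seen at 1 day only differed from those seen at both. The 4664 peaks found at day 6 only had a median width of 16138 bp, touched a promoter in 7.33% of cases, held 4.82 CpGs per kb and a GC content of 36.7%, and touched an H3K27me3 peak of day 6 in 9.01% of cases and of day 0 in 7.38%. The 3620 peaks found at day 0 only had a median width of 13087 bp, touched a promoter in 46.5% of cases, held 13.6 CpGs per kb and a GC content of 44.5%, and touched an H3K27me3 peak of day 6 in 35.1% of cases and of day 0 in 55.3%. The 1513 day 0 peaks that met a day 6 peak were wider, at a median of 37068 bp, and 71.2% of them touched a plain H3 peak of day 6 and 70.3% one of day 0. Since 1 bp in common was enough, a wide peak meets or touches another more readily, so the width difference is partly built into the split. Among the peaks found at day 0 only, 6.27% touched an H3 peak of day 6 and 13% one of day 0. Leaving out every peak that touched an H3 peak found in both replicates of either day left 4341 peaks at day 6 and 3391 at day 0, of which 7.23% of the day 6 peaks and 9.05% of the day 0 peaks were shared.

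At promoters the mark was found less often at day 6. A peak lay at 2329 and 1205 promoters in the day 6 replicates, against 4196 and 3981 in the day 0 replicates. Both replicates had one at 616 of 23581 promoters at day 6 (2.61%) and at 2591 at day 0 (11%). Of these promoters 2218 lost, 373 kept and 243 gained a peak by that rule. The rule is strict, since 423 and 208 of the lost promoters had a peak in day 6 replicates 1 and 2, and 853 and 562 had a call of any strength there. Among the gained promoters, 51 had a peak in day 0 replicate 1 and 36 in replicate 2. On chromosome 8, which makes up 4.75% of the genome, lay 365 of the lost (16.5%), 201 of the kept (53.9%) and 39 of the gained promoters (16.0%). Of all 13593 genes tested in RNA, 12896 lay off this chromosome.

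The lost promoters were CpG-rich and the gained ones CpG-poor. The ratio of observed to expected CpGs had a median of 0.612 in lost, 0.505 in kept and 0.156 in gained promoters, where all promoters had 0.454. In the promoters with a ratio of up to 0.2 (5443 promoters), 16.0% and 7.83% had a peak at day 6, against 7.04% and 8.29% at day 0. In those with a ratio above 0.6 and up to 0.8 (5822 promoters), 8.38% and 4.29% had a peak at day 6, against 25.6% and 23.0% at day 0. Plain H3 had a peak at 3.81% and 4.41% of that class at day 6, against 20.7% and 12.6% at day 0, and its part in the result was not tested. The days were separate in the CpG-rich class, while in the CpG-poor class day 6 replicate 2 lay within the day 0 range. H3K27me3 peaks in both replicates were present at 56.9% of the lost promoters at day 6 and at 84.0% at day 0. For kept promoters they were present at 82.6% at day 6 and 89.8% at day 0, and for gained promoters at 17.7% at day 6 and 16.5% at day 0.

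**Figure D2:**
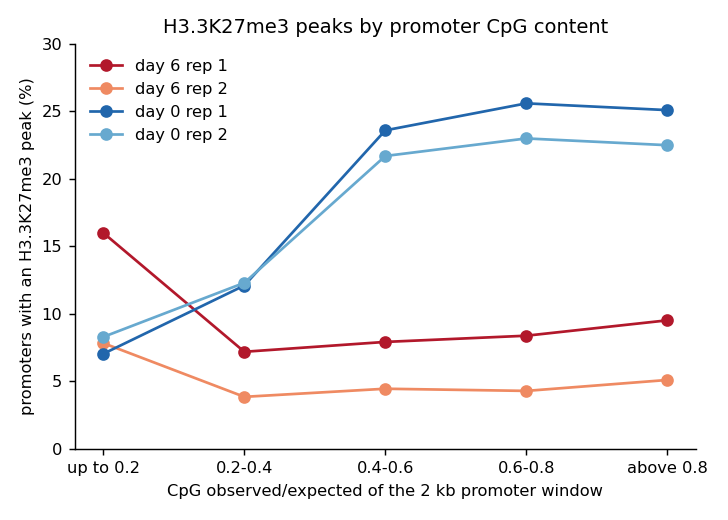
Percent of promoters with an H3.3K27me3 peak, by class of the observed to expected CpG ratio of the promoter, with 1 line per library, day 6 listed before day 0. In the class above 0.6 and up to 0.8 the day 6 libraries lie at 8.38% and 4.29%, against 25.6% and 23.0% at day 0.

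The 4 HOX clusters, which encode the factors that set position along the body axis, held H3.3K27me3 peaks over only a part of their length at day 6 and over most of it at day 0. In windows reaching 10 kb beyond each cluster, peaks covered 38.2% and 14.2% of Hoxa (chr6:52145590-52270880) at day 6, against 98.3% and 100% at day 0. Hoxb (chr11:96184316-96378256) was covered to 1.28% and 0% at day 6, against 91.3% and 81.7% at day 0. Hoxc (chr15:102911103-103046852) was covered to 16.1% and 21.6% at day 6, against 100% and 100% at day 0. Hoxd (chr2:74658310-74775142) was covered to 22.1% and 30.2% at day 6, against 100% and 100% at day 0. In each cluster both day 6 values lay below both day 0 values, and Hoxb kept the least. The highest enrichment in Hoxc was 2.58 and 3.01 at day 6, against 4.30 and 5.21 at day 0. H3K27me3 covered more of the clusters at day 6, for example 81.9% and 74.9% of Hoxc, against 100% and 100% at day 0, and 45.9% and 28.2% of Hoxb, against 100% and 86.7% at day 0.

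Of the 39 HOX promoters, 3 had an H3.3K27me3 peak in both replicates at day 6 and 39 at day 0. The 3 were those of Hoxa10, Hoxc9 and Hoxd8. In single libraries, 9 and 11 of the 39 had a peak at day 6, against 39 and 39 at day 0. Their enrichment ranged over 2.11 to 3.05 and 2.15 to 3.01 where there was a call at day 6 (16 promoters in each replicate), against 3.60 to 4.30 and 3.47 to 5.21 at day 0. The day 6 and day 0 ranges did not overlap, but promoters under 1 wide call share its value. Plain H3 had a peak at none of the 39 promoters in either replicate at day 6, and at 4 and 0 at day 0. Hoxc8 had no call at day 6, against 4.30 and 5.21 at day 0, and its RNA stood at 78.4 and 75.9 CPM at day 6, against 0 and 0.0937 at day 0. Hoxa10, which kept its peak, had enrichments of 3.05 and 2.58 at day 6, against 4.18 and 4.10 at day 0, and its RNA rose, with 17.4 and 14.3 CPM at day 6 and 1.13 and 0.281 at day 0 (edgeR log2 change 4.71, SE 0.37, adjusted p = 9.1e-08). Of the 32 HOX genes with enough RNA counts to be tested, 30 rose and 1 fell at day 6, where 41.4% of all 13593 genes tested rose and 36.6% fell.

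**Figure D3:**
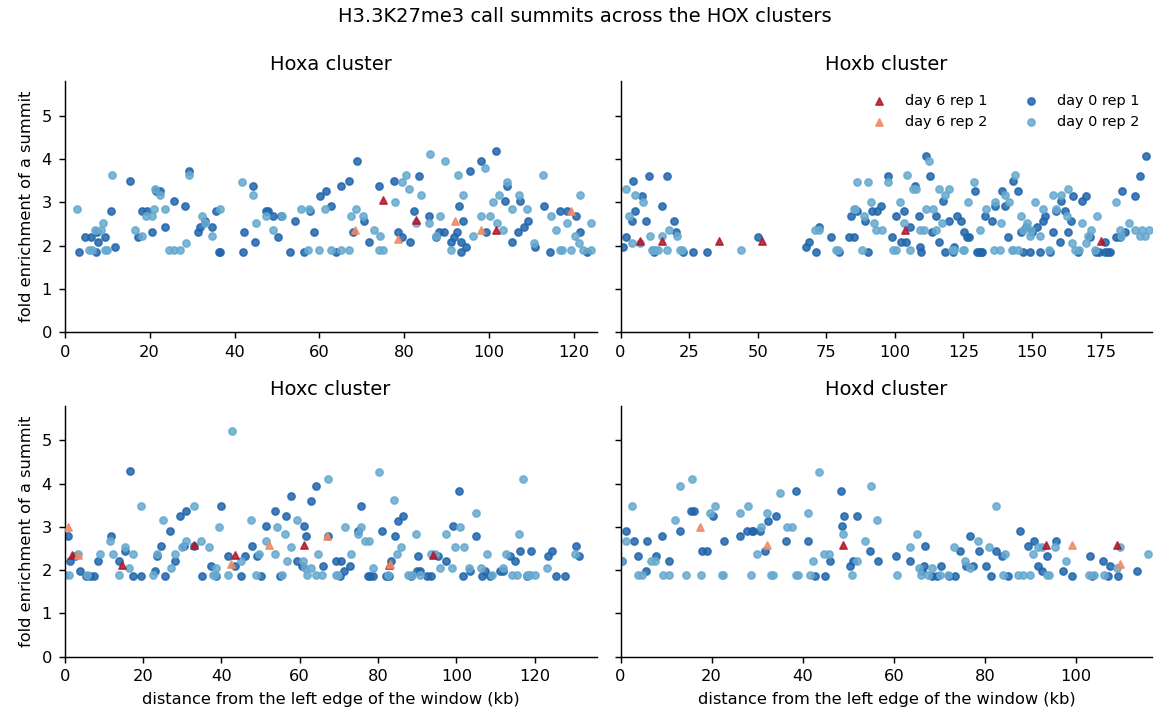
Each point is the summit of an H3.3K27me3 call in 1 of the 4 HOX clusters, by distance from the left edge of the window in kb and by fold enrichment, with triangles for the day 6 replicates and circles for the day 0 replicates. Hoxc holds 7 and 6 summits at day 6, against 94 and 91 at day 0, and Hoxb holds 6 and 0 at day 6, against 106 and 101 at day 0.

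Other developmental regulators also had fewer peaks at day 6. Of 53 neural patterning factors, 4 had a peak in both replicates at day 6 and 47 at day 0, against 616 at day 6 and 2591 at day 0 of all 23581 promoters. Of 27 proneural and neurogenic factors 3 did at day 6 and 24 at day 0. Pax7, Irx5 and Barhl2 were among the patterning genes that kept a peak, and Pou4f1 and Ebf3 among the proneural genes. Irx3, a patterning factor of the neural tube, had enrichments of 3.29 and 2.36 at day 6, against 4.18 and 5.21 at day 0. Isl2 had no call and 2.79 at day 6, against 5.69 and 4.10 at day 0. In the list of 32 primitive streak and mesoderm genes, 2 had a peak in both replicates at day 6, the heart and mesenchyme factors Hand2 and Foxf1, and 21 at day 0. Both lie on chromosome 8, as does Irx5. In RNA, 31 of 42 patterning genes tested rose and 6 fell, 17 of 22 proneural genes rose and 2 fell, and 15 of 23 mesoderm genes rose and 3 fell. Of all 13593 genes tested, 41.4% rose and 36.6% fell. In any of the lists, a gene silent at day 0 entered the test only through its counts at later days. A fall was not open to such a gene. Of 20 endoderm genes, none had one at day 6 and 13 at day 0, and 16 of the 18 tested rose in RNA and 1 fell. The endoderm factor Sox17 stood at 2.82 and no call at day 6, against 3.02 and 3.47 at day 0. Nkx2-1 stood at 2.58 and no call at day 6, against 4.88 and 5.05 at day 0.

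Genes of mature neurons, of the retinoic acid response and of signalling also had fewer peaks at day 6 than at day 0. Over all promoters, 2.61% had a peak in both replicates at day 6 and 11% at day 0. None of 29 genes of mature neurons had a peak in both replicates at day 6, and 13 had one at day 0, while 17 of the 22 tested rose in RNA and 3 fell. Nefl, a neurofilament subunit, had no call and 2.79 at day 6, against 4.53 and 3.00 at day 0. Of 20 genes of the retinoic acid response, none had a peak in either replicate at day 6, and 7 had one in both at day 0, while 15 of the 18 tested rose in RNA and 1 fell. Cyp26a1, the enzyme that breaks down retinoic acid, had no call at day 6, against 3.37 and 3.32 at day 0. Its RNA stood at 763 and 730 CPM at day 6, against 1.93 and 0.750 at day 0 (edgeR log2 change 9.28, SE 0.16, adjusted p = 3.0e-13). Of 43 signalling ligands and inhibitors, none had a peak in both replicates at day 6 and 23 at day 0, and 22 of the 35 tested rose in RNA and 8 fell. Of 28 Polycomb and demethylase genes, none had one at day 6 and 3 at day 0, a share of 10.7% at day 0 that is near that of all promoters. Among them were the Polycomb repressive complex 1 genes Bmi1 and Cbx8. In RNA, 10 of the 27 tested in this list rose and 12 fell, where 41.4% of all genes tested rose and 36.6% fell. Bmi1 had no call at day 6, against 4.18 and 3.95 at day 0, and its RNA rose to 103 and 104 CPM at day 6, against 9.00 and 9.00 at day 0 (log2 change 3.52, SE 0.10, edgeR adjusted p = 1.0e-11). None of 25 housekeeping genes had a peak in any of the 4 libraries, and 21 of the 23 tested fell in RNA and 1 rose.

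The pluripotency factors fell in RNA. None of the 24 promoters had an H3.3K27me3 peak in both replicates at day 6, and 4 had one at day 0, namely Esrrb, Dppa3, Nanog and Klf5. Of all 23581 promoters, 2.61% had one at day 6 and 11% at day 0, and 243 gained one. The absence of a gain among 24 promoters is thus near the share of all promoters. All 24 genes fell in RNA, where 36.6% of all 13593 genes tested fell. H3K27me3 peaks in both replicates lay at 12 of the 24 promoters at day 6, against 5 at day 0. Over all 23581 promoters the share with such H3K27me3 peaks was 10.8% at day 6 and 17.8% at day 0. Nanog, a core factor of the stem cell state, had enrichments of 2.35 and 2.79 at day 6, against 3.37 and 2.53 at day 0, so its days overlapped. Its RNA stood at 11.4 and 14 CPM at day 6, against 408 and 485 at day 0 (edgeR log2 change -5.15, SE 0.12, adjusted p = 1.4e-12).

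**Figure D4:**
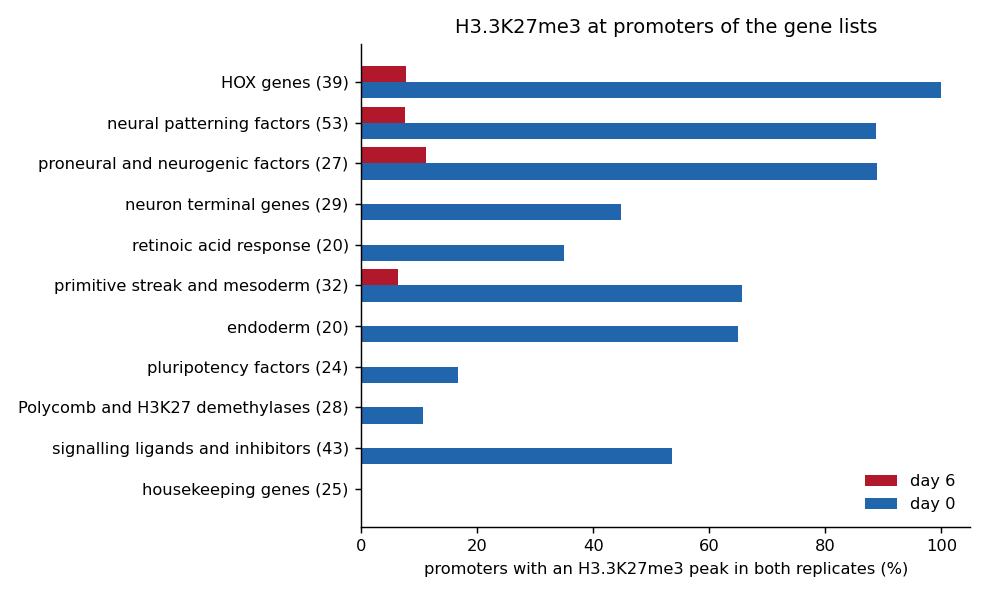
Bars give the percent of promoters with an H3.3K27me3 peak in both replicates for each of the 11 gene lists, with the number of genes in brackets and day 6 above day 0. HOX genes stand at 7.69% at day 6, against 100% at day 0, and housekeeping genes at 0% on both days.

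The gained promoters included members of large receptor families. Of the 243, 77 belong to olfactory receptors and 22 to vomeronasal receptors, which sense odours and pheromones and lie in CpG-poor gene clusters. Of all 23581 promoters, 1114 and 327 belong to these families. A peak lay at 9.88% and 5.11% of all promoters at day 6, against 17.8% and 16.9% at day 0. Of 1114 olfactory receptor promoters, 397 and 179 had a peak at day 6, against 82 and 119 at day 0. Of 327 vomeronasal receptor promoters, 80 and 47 had a peak at day 6, against 22 and 31 at day 0. The days were separate in both families, but the day 6 replicates differed more from each other than the day 0 replicates did. Plain H3 had a peak at 79 and 125 olfactory receptor promoters at day 6, against 76 and 37 at day 0. At vomeronasal receptor promoters its days overlapped, with 21 and 48 at day 6, against 28 and 19 at day 0. Genes of these families are near-identical copies in part, and how reads were shared among them is not given in the sources used here. These families were chosen after their values were seen.

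None of the 5 strongest peaks of either day held the start of a gene of the lists. The peak at chr9:2999865-3038547 had enrichments of 54.3 and 50.5 at day 6, against 27.9 and 36.2 at day 0. The one at chr11:3148615-3200189, which holds the start of Sfi1, had 34.1 and 33.7 at day 6, against 33.5 and 39.3 at day 0. Both places also had strong calls with plain H3, which had 33 and 36.8 at day 6 and 30.0 and 33.1 at day 0 on chromosome 9, and 29.2 and 33 at day 6 and 31.8 and 33.7 at day 0 on chromosome 11. One strong peak differed among the antibodies: chr6:3191782-3203956, with no gene start inside, had 22.6 and 20.4 at day 6, against 15.2 and 18.6 at day 0 for H3.3K27me3. There H3.3 had 1.90 and 2.61 at day 6, against 16.6 and 16.4 at day 0, and the difference between the antibodies in the day 6 change was 3.24 on the log2 scale (limma interaction adjusted p = 9.1e-05). Plain H3 had 2.10 and 13.1 at this place at day 6, against 2.59 and 3.23 at day 0, so its day 6 replicates differed widely. H3K27me3 had 2.59 and 2.31 at day 6, against 2.04 and 2.92 at day 0.

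A region is a merged stretch of peaks found in both replicates of day 0 or of day 6. The values that chose the regions were therefore also the values tested. Where all 4 libraries had a call, the size of the enrichment could be compared. Of 4327 such regions, limma on log2 enrichment called 873 higher at day 6 (20.2%) and 100 lower (2.31%) at an adjusted p below 0.05. All 873 held a peak of both day 6 replicates, and 19 held one of both day 0 replicates. Of the 100, 20 held one of both day 6 replicates and 98 of both day 0 replicates. These calls are thus not independent of the peak lists. All regions together were shifted up by a median of 0.20 (log2). After each library was centred on its median, no region was called higher or lower, while 410 were higher and 807 lower at an unadjusted p below 0.05. Leaving out either day 0 library also left no call. The 873 regions had medians of 2.82 and 2.79 at day 6, against 1.86 and 1.89 at day 0, which are the lowest values a call took in those day 0 libraries. They had a GC content of 36.6%, and 9.28% held a gene start. The 100 lower regions had medians of 2.35 and 2.15 at day 6, against 3.60 and 3.63 at day 0, with a GC content of 47.9% and a gene start in 83.0%. Their median of 2.15 is the lowest value a call took in day 6 replicate 2.

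The lower regions included those of Nkx2-1, of Dlx1 and Dlx2, and of Cdkn2c. The Nkx2-1 region (chr12:56498500-56542692) had 2.58 and 2.79 at day 6, against 4.88 and 5.05 at day 0 (log2 change -0.89, SE 0.15, limma adjusted p = 0.00817, and 0.0919 after centring). The region of Dlx1 and Dlx2 (chr2:71514961-71557005), factors of inhibitory neurons, had 2.58 and 2.58 at day 6, against 4.53 and 4.89 at day 0 (log2 change -0.87, SE 0.15, limma adjusted p = 0.00827). The region of Cdkn2c (chr4:109652283-109670977), a cell cycle inhibitor, had 2.58 and 2.79 at day 6, against 5.11 and 5.53 at day 0 (log2 change -0.98, SE 0.15, limma adjusted p = 0.00553). Of the regions called higher, chr1:95445044-95462440 lies 131 kb from Fam174a and had 9.16 and 4.94 at day 6, against 1.86 and 1.89 at day 0 (log2 change 1.84, SE 0.28, limma adjusted p = 0.00466, and 0.0919 after centring). In each of these regions both day 6 values lay on 1 side of both day 0 values. With 2 libraries a day, an exact permutation test of 1 region cannot give a two-sided p below 0.333, so these calls rest on the spread pooled over regions.

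Of the 846 promoters with a call in every library, 24 were lower at day 6 (2.84%) and 1 was higher (0.118%), by limma at an adjusted p below 0.05. The median promoter changed by -0.01 (log2). Centring left 6 lower and 1 higher, and leaving out any 1 of the 4 libraries left none. Hoxc11 had 2.35 and 2.15 at day 6, against 4.30 and 5.21 at day 0 (log2 change -1.08, SE 0.19, limma adjusted p = 0.0134), and Hotair, a non-coding RNA gene in the Hoxc cluster, shares its day 0 call. The 2.15 of Hoxc11 is the lowest value a call took in day 6 replicate 2. The protocadherin genes Pcdhgb8 and Pcdhga12, cell surface proteins of neurons with overlapping transcripts, shared 2.58 and 2.36 at day 6, against 4.07 and 5.05 at day 0 (log2 change -0.88, SE 0.19, limma adjusted p = 0.0296, and 0.0565 after centring). The promoter called higher was that of Gm8994, with 4.23 and 4.29 at day 6, against 1.98 and 2.37 at day 0 (log2 change 0.98, SE 0.19, limma adjusted p = 0.017).

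In regions with H3.3K27me3 peaks found at day 0 only, the authors' deposited tables for H3K27me3, H3.3 and H3 each had a median above that of their whole table. The authors' deposited table for H3K27me3, whose log2 differences are day 0 minus day 6, had a median of 0.34 over 2281 of its regions touching H3.3K27me3 peaks found at day 0 only, where the whole table had 0.13. In the authors' deposited table, 1465 of those 2281 were higher at day 0 at a false discovery rate below 0.05, and 18 were higher at day 6. Over the whole of that authors' deposited table, 3195 of 10485 regions were higher at day 0 and 270 at day 6. Regions touching peaks found at day 6 only had a median of -0.03 in that authors' deposited table. In the authors' deposited table for H3.3, the median over 1776 regions touching peaks found at day 0 only was 0.22, where the whole table had 0.12, with 922 higher at day 0 and 164 higher at day 6 at the same rate. The whole of the authors' deposited table for H3.3 had 5395 of 14811 regions higher at day 0 and 2065 at day 6. In the authors' deposited table for H3, the median was 0.15 over 694 such regions, where the whole table had 0.08, with 199 higher at day 0 and 22 higher at day 6 at that rate. The whole of the authors' deposited table for H3 had 1099 of 6613 regions higher at day 0 and 611 at day 6. The difference between antibodies was tested on enrichment. Of 2787 regions with a call in all 8 libraries, 106 (3.80%) changed differently in H3.3K27me3 than in H3K27me3, but none did after centring. For H3.3, 112 of 2122 regions (5.28%) differed, and 47 after centring. For plain H3, 2 of 2072 (0.0965%) differed, before and after centring. One of these holds Gm13271, Gm13286 and Gm13283 (chr4:88740929-88762668), where H3.3K27me3 stood at 2.11 and 2.15 at day 6, against 6.04 and 6.00 at day 0. Plain H3 stood there at 1.96 and 1.89 at day 6, against 2.07 and 1.96 at day 0 (difference -1.43 on the log2 scale, limma adjusted p = 0.00304). The day 6 values of both antibodies are the lowest a call took in those libraries.

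Tested genes whose promoters lost H3.3K27me3 had a higher median RNA change at day 6 than all tested genes. Their RNA was compared in 2 libraries a day, whose labels do not say that they were separate cultures, so the p-values speak of the spread among these libraries, which may be technical. By edgeR, 5627 of 13593 genes tested rose at day 6 (41.4%) and 4971 fell (36.6%), with a median log2 change of 0.09. Of the 2218 genes with a lost promoter, 1570 passed the filter on low counts, and of these 1053 rose (67.1%) and 289 fell (18.4%), with a median of 1.92. Of the 373 kept, 212 passed, 133 rose (62.7%) and 49 fell (23.1%), with a median of 1.11. Of the 243 gained, 46 passed, 20 rose (43.5%) and 18 fell (39.1%), with a median of 0.06. A gene that is silent at day 0 enters the test only through its counts at day 3 or day 6, so the genes that passed are not a sample of all members. Without chromosome 8 the medians were 2.34 for 1318 lost, 2.53 for 89 kept and 1.95 for 20 gained genes that passed. The differences between these medians were not tested.

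The genes named here were ranked by the fitted log2 change, which for a gene at 0 counts depends on a prior count. Those with the largest fitted rise among lost and kept promoters were mostly at 0 counts in both day 0 libraries, so their change is given as a lower bound against 3 counts over the 2 libraries. Their order is therefore not one of measured size, and the lost genes Hoxa5 and Hoxb8, with counts on both days, were 1072-fold and 967-fold higher by edgeR. Lhx1, a factor of motor and interneurons with a lost promoter, had 132 and 120 CPM at day 6, against 0 and 0 at day 0, at least 715-fold higher (edgeR adjusted p = 6.4e-12). Neurog2, a proneural factor with a lost promoter, had 99.1 and 89.5 CPM at day 6, against 0 and 0 at day 0, at least 534-fold higher (edgeR adjusted p = 4.3e-10). Dbx1, an interneuron progenitor factor with a lost promoter, had 83.7 and 79.2 CPM at day 6, against 0 and 0 at day 0, at least 460-fold higher (edgeR adjusted p = 5.5e-11). Prdm12, a sensory neuron factor that kept its peak, had 33.9 and 33.2 CPM at day 6, against 0 and 0 at day 0, at least 189-fold higher (edgeR adjusted p = 3.9e-10). Its enrichments were 2.58 and 2.58 at day 6, against 3.60 and 3.79 at day 0.

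Other genes of each class fell or rose. Pou4f2, a retinal ganglion cell factor with a lost promoter, had 0.222 and 0.0914 CPM at day 6, against 15.9 and 16.6 at day 0 (edgeR log2 change -6.55, SE 0.35, adjusted p = 2.5e-09). Its enrichments were 3.05 and 2.36 at day 6, against 3.83 and 4.42 at day 0. Hydin, a protein of motile cilia with a kept promoter on chromosome 8, had 0.443 and 0.0914 CPM at day 6, against 4.50 and 7.12 at day 0 (edgeR log2 change -4.34, SE 0.48, adjusted p = 2.7e-06). Among gained promoters, the germline factor gene Tcfl5 had 5.46 and 6.13 CPM at day 6, against 66.7 and 68.3 at day 0 (edgeR log2 change -3.55, SE 0.15, adjusted p = 2.0e-10). Its enrichments were 2.58 and 3.01 at day 6, against 2.79 and 1.89 at day 0. It had a peak in day 0 replicate 1, so its days overlapped. Psd3, also with a gained promoter and on chromosome 8, had 84.2 and 71.2 CPM at day 6, against 4.66 and 4.69 at day 0 (edgeR log2 change 4.05, SE 0.15, adjusted p = 6.2e-11). Its enrichments were 3.52 and 3.01 at day 6, against no call and 2.84 at day 0, where replicate 2 had a peak.

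**Figure D5:**
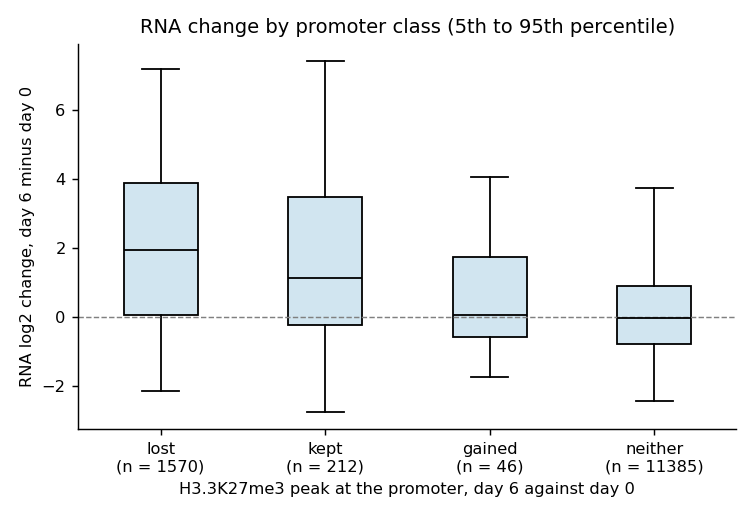
RNA log2 change, day 6 over day 0, of genes whose promoter lost, kept or gained an H3.3K27me3 peak or had one in neither, with boxes for the quartiles, whiskers from the 5th to the 95th percentile and genes at 0 counts on 1 day set at their bound. The medians are 1.92 for lost, 1.11 for kept and 0.06 for gained promoters.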

How the data were processed

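H3.3K27me3 ChIP-seq libraries of wild-type mouse cells at day 6 and day 0 (2 each), with H3K27me3, H3.3 and H3 libraries beside them, and wild-type RNA-seq of 2019 were used. Per the submitters' processing notes, the authors aligned with STAR 2.5.2a to mm10. Peaks were called with MACS 2.2.6 per the file headers, without a control, at p 0.01, with calls of at least 1000 bp, gaps of up to 5000 bp joined, fragments set at 200 bp and 1 tag per position. The deposited call tables hold a pileup signal, a fold enrichment (a ratio to the genome-wide mean, with 1 added to each) and a −log10 p per call. The shorter filtered lists, whose filter is not given in the sources used here, hold no call under a −log10 p of 3 and leave out 18, 22, 27 and 31 stronger calls. The authors' DiffBind tables give a log2 difference of day 0 minus day 6 and a false discovery rate (adjusted p-value) per region; that for H3.3K27me3 was not used here. The authors deposited whole read counts per gene symbol from HTSeq, per the submitters' processing notes. The strand setting is not given, so genes that overlap or lie antisense cannot be told apart.

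A peak of both replicates is a merged stretch of filtered peaks that holds at least 1 bp of a peak of each. A promoter is a gene start with 1000 bp on either side, for 23581 genes, and a region or promoter takes the highest enrichment of any call touching it. limma 3.58.1 (R 4.3.3) with an intensity trend tested log2 enrichment where all libraries had a call, with no pseudocount beyond the 1 in the deposited enrichment. RNA was tested with edgeR 4.0.16 (quasi-likelihood, TMM, filterByExpr; the spread was estimated over days 0, 3 and 6 together). Calls were made at a Benjamini-Hochberg adjusted p below 0.05. Summary rows, 35.3% to 50.8% of all reads in 2019, stayed out of library sizes, which left 12.7 and 10.2 M counts at day 6 and 6.97 and 12 M at day 0 (M for units of 1e6). CPM values and lower bounds are scaled by TMM. The steps were tested on simulated data. Regions and promoters named had the largest changes among those called without overlap of the days; list genes had the highest mean enrichment at a day; RNA genes had the largest fitted changes of their class, up to 5 each way, and not all are printed. Some genes that these rules name are not reported here. Members, lists and tests were chosen with earlier results of these data known. Alternatives were other overlaps, thresholds, scalings, left-out libraries, DESeq2 1.42.0 and a replicate block.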

Additional observations from a re-analysis of the deposited data

Results flagged for a closer look

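The change of H3.3K27me3 at day 6 against day 0 differed from that of another antibody by the test of the difference itself (limma interaction of day and antibody) in 106 regions against H3K27me3, in 112 against H3.3 and in 2 against H3. Against H3K27me3, 104 of the 106 had a higher change in H3.3K27me3. An example is the region of protocadherin gamma genes at chr18:37658960-37703697, with 2.82 and 2.58 at day 6, against 2.90 and 2.68 at day 0 for H3.3K27me3. H3K27me3 had 2.59 and 2.31 there at day 6, against 5.82 and 7.53 at day 0 (difference 1.39 on the log2 scale, adjusted p = 0.0296, and 0.151 after centring). The median change over the regions was 0.13 in H3.3K27me3 and -0.11 in H3K27me3. The part of this shift between the libraries in the calls was not tested beyond the centred fit, which called none.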

How the results depend on the processing

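Under the alternatives 61 values kept their side or size, 90 moved and 1 reversed. Alternatives without chromosome 8, without H3 peaks, with equal numbers of promoter peaks and with the RNA of 2020 were chosen after seeing the data. Day 6 and day 0 peaks of both replicates numbered 27195 and 21754 with all calls, 2935 and 3293 at a stricter overlap (0.5 of the peak), and 625 and 482 at an enrichment of at least 3. With equal numbers of strongest peaks day 6 had 3759, and without H3 peaks day 0 had 3391. A single replicate gave 14475 to 26201 at day 6 and 12676 to 14783 at day 0. The share of day 6 peaks present at day 0 was 32.8% with all calls, 33.4% at the stricter overlap, 33.1% at an enrichment of at least 3, 38% with equal numbers, 14% without chromosome 8, 7.23% without H3 peaks and 13.5% to 37.8% with a replicate left out. The share of day 0 peaks kept was 38.4%, 22.5% and 39.2% in the first 3 of these, 17.0% without chromosome 8, 9.05% without H3 peaks and 20.1% to 48.7% with a replicate left out. Promoters with a peak numbered 1480 at day 6 and 5027 at day 0 with all calls, and 145 and 479 at an enrichment of at least 3. At day 6 they numbered 376 without chromosome 8 and 229 without H3 peaks. A replicate left out gave 1205 to 2329 at day 6 and 3981 to 4196 at day 0.

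Regions higher at day 6 numbered 0 after centring, 3902 with uncalled regions set at the lowest listed enrichment, 420 without the trend, 348 when centred without chromosome 8, and 0 to 869 with a replicate left out. Regions lower numbered 0, 414, 74, 290 and 0 to 102. Promoters higher numbered 158 with uncalled ones kept and 10 when centred without chromosome 8, and promoters lower 6 after centring, 381 with uncalled ones kept and 14 when centred without chromosome 8; both were 0 to 0 with a replicate left out. Interaction calls were 0 for H3K27me3 and 47 for H3.3 after centring, 4 for H3 without chromosome 8, and 0 to 2, 2 to 33 and 1 to 3 with a replicate left out. The cause of these shifts was not tested. Median RNA changes were 1.62, 1.77, 1.47, 1.15 and 2.34 for lost promoters (no count filter, 2500 bp windows, all calls, 2020 libraries, without chromosome 8), of which the value of 2020 rests on 2 libraries at day 6 and 1 at day 0. Those of kept promoters were 0.94, 0.93, 0.69 and 2.53 (the same without all calls). For gained promoters they were -0.17 with all calls, a change of sign, and 1.95 without chromosome 8. DESeq2 called 5020 genes higher and 4615 lower.

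Replicates with the same number did not deviate together (correlation -0.0373 over regions, 0.015 over promoters, -0.0225 over genes). With 2 libraries a day this cannot settle whether the numbers pair the samples, and the main fits did not pair them. With a replicate block, 921 regions were higher and 151 lower, 15 promoters higher and 58 lower, 94, 84 and 3 regions differed from H3K27me3, H3.3 and H3, and 5607 genes were higher and 4937 lower in RNA. The lowest enrichment of any call was 2.11 and 2.15 at day 6, against 1.86 and 1.89 at day 0. A promoter without a call at day 6 may thus still carry the mark below those values. The call tables held 70235 and 51577 calls at day 6, against 41272 and 65155 at day 0. The part of depth in missing calls was not tested.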

Other observations

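Protocadherin promoters, which drive cell surface proteins of neurons from clustered genes, had fewer peaks at day 6. Of 69, 19 had a peak in both replicates at day 6 (27.5%) and 57 at day 0 (82.6%). In single libraries 35 and 28 had one at day 6, against 62 and 60 at day 0. Wnt genes, which encode secreted signals, had 0 of 19 at day 6 and 12 at day 0, Gata factors 0 of 6 at day 6 and 5 at day 0, and Lhx factors 1 of 9 at day 6 and 9 at day 0, where all promoters had 2.61% at day 6 and 11% at day 0. These families were picked by symbol after the data were seen.

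The X chromosome, which makes up 6.28% of the genome, held 0.0425% and 0.0899% of the peak bases of H3.3K27me3 at day 6, against 0.111% and 0.0854% at day 0. Its share was between 0.0390% and 0.212% in the libraries of the other antibodies.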
